A study of Mus musculus with 10 samples.

Results

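The interferon-inducible GTPases studied here are 10 genes of 2 families: the guanylate-binding proteins Gbp2, Gbp3, Gbp6, Gbp7 and Gbp9, and the immunity-related GTPases Irgm1, Irgm2, Igtp, Iigp1 and Ifi47. They were chosen by name from the 16875 gene names of an RNA sequencing table of mouse colon tumors, with their difference between Villin-WlscKO and control tumors already known, so that difference is described here and not tested. The table holds 9 distinct entries for the 10 names, because Igtp and Irgm2 carry 1 set of values. Tumors had been induced in C57Bl6 mice with azoxymethane (AOM), a colon carcinogen, and 3 cycles of 2% dextran sulfate sodium (DSS) in the drinking water, which injures the colon epithelium. The study asked what happens to such tumors when their epithelium can no longer secrete Wnt ligands. The 5 control tumors were Wls flox/flox and the 5 Villin-WlscKO tumors were Villin-Cre ERT2, Wls flox/flox. Tamoxifen (80 mg per kg, 5 injections, the first 30 days before collection) activates this Cre in intestinal epithelial cells only and removes Wls, the protein that carries Wnt ligands out of the cell. Other cells of the tumor keep the gene. Mice were 6 to 10 weeks old at the start. By the study's description, control tumors with intact Wnt secretion came from mice given no tamoxifen unless stated otherwise, so tamoxifen and the loss of Wls cannot be told apart here. From how many mice the tumors of a group came is not stated, so that p-values measure the spread between these tumors, which may not be the spread between mice.

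Both families are cell-autonomous defence proteins. Interferon-gamma binds its receptor, the kinases Jak1 and Jak2 pass the signal on, and transcription factors such as Irf1 switch on these GTPases in epithelial cells, macrophages and most other cell types. The proteins then gather on the membrane around intracellular bacteria and parasites and help to break it open. Among the immunity-related GTPases, Irgm1, Irgm2 and Igtp mainly restrain the others on the cell's own membranes, whereas Iigp1 and Ifi47 belong to the effector group that loads on to foreign vacuoles.

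The promoters are shown first, because the response to interferon acts through short DNA elements. A gamma-activated site (GAS), an element of promoters that interferon-gamma induces, was searched as TTCNNNGAA, and an interferon-stimulated response element (ISRE), bound by interferon regulatory factors, as GAAANNGAAA or its reverse complement TTTCNNTTTC. Matches were sought on both strands from 250 bases before to 50 bases after the RefSeq start site (GRCm38.p6), where 7 of the 10 genes had an entry. Each line gives the 110 bases upstream of a RefSeq start site, 5′ to 3′ on the strand of the gene, with matches in capitals. RefSeq start sites can differ from the gene spans given below, which are from GENCODE M21. By those spans, the windows of Irgm1 and Irgm2 lie inside the gene, and those of Gbp2 and Gbp3 lie there in part. The windows lie at chr3:142620553-142620662 (+) for Gbp2, chr3:142559934-142560043 (+) for Gbp3, chr3:142530226-142530335 (+) for Gbp7, chr11:48871421-48871530 (-) for Irgm1, chr11:58199446-58199555 (+) for Igtp and chr11:58214867-58214976 (+) for Irgm2.
Gbp2: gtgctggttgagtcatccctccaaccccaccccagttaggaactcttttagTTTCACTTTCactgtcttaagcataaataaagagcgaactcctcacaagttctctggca
Gbp3: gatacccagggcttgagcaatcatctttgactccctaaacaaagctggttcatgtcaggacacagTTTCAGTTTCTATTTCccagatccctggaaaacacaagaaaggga
Gbp7: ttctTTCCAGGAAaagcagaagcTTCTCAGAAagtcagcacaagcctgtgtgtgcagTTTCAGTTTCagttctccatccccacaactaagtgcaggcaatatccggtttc
Irgm1: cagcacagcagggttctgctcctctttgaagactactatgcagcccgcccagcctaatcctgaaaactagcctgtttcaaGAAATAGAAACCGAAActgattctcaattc
Igtp: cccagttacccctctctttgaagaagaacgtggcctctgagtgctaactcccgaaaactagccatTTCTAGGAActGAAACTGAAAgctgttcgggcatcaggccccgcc
Irgm2: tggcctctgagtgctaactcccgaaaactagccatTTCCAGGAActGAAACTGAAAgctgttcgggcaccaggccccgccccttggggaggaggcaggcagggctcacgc

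In these letters, Gbp2 held 1 ISRE 59 bases upstream of its start site, Gbp3 and Irgm1 each held 2 ISRE that overlap, and Gbp7, Igtp and Irgm2 held both elements. Over the longer window, 6 of the 7 genes had an ISRE and 3 had a GAS. Of all 32851 promoters in the same table, 3.44% held an ISRE, 8.30% a GAS and 0.454% both. These shares are per promoter, whereas a gene was counted if any of its start sites matched. Ifi47, the seventh gene, held neither set of letters, and Gbp3 has another start site listed without a match. The windows of Igtp and Irgm2, shifted by 30 bases to align their elements, were equal at 78 of 80 bases. In both, the ISRE began 11 bases after the GAS. The same spacing of 11 bases was found in Tgtp1, Tgtp2 and Gm12185, which are not members. Among 10 other genes of the 2 families with an entry, 7 held an ISRE and 5 of those also held a GAS. A match describes the letters only, as no binding was measured here.

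**Figure D1:**
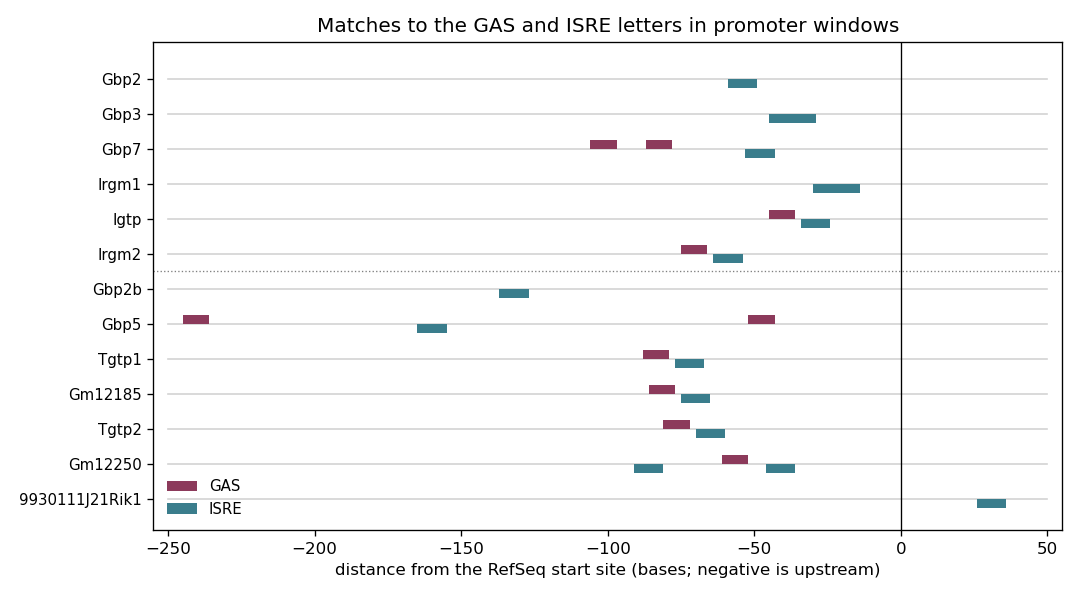
Positions of GAS and ISRE matches (colored bars) in bases from the RefSeq start site, for 6 members (above the dotted line) and 7 other genes of the families with a match; overlapping matches join into 1 longer bar. Matches of the 6 members lie within 110 bases upstream of the start site, and Igtp, Irgm2, Tgtp1, Gm12185 and Tgtp2 repeat one arrangement with the GAS just ahead of the ISRE.

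Coordinates of genes are those of GENCODE M21 (GRCm38). Levels are given in FPKM, a read number scaled to the length of the transcript and the size of the library. A log2 difference is the mean of log2(FPKM + 1) in Villin-WlscKO tumors less that in control tumors, and its standard error comes from limma. This scale understates the change of genes with low FPKM. The deletion was visible in every tumor: Wls lay between 61.3 and 79.9 FPKM in the control tumors and between 2.03 and 11.7 FPKM in the Villin-WlscKO tumors. The female transcript Xist lay between 0.0366 and 0.420 FPKM in the controls and between 439 and 701 FPKM in the Villin-WlscKO tumors, and Y-linked Eif2s3y showed the opposite, so sex and genotype cannot be told apart in any comparison below. Epithelial identity was present in both groups, with Epcam at mean 986 and 1120.2 FPKM and the villin gene Vil1 at 125 and 175 FPKM. Villin-WlscKO tumors 2 and 3 stood apart by Krt5, a keratin of squamous epithelium, at 469.5 and 669 FPKM, while the other 8 tumors had at most 0.315 FPKM. Over all genes, 6.12% of 16757 names tested were higher and 4.75% lower in Villin-WlscKO tumors (limma, adjusted p under 0.05), 1026 against 796 names. After scaling each tumor to 1 FPKM sum, the split was 1385 higher against 412 lower, and after quantile normalization 894 against 1126.

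All 10 members were higher in the Villin-WlscKO tumors, by 4.43-fold (Gbp9) to 27.3-fold (Iigp1) of mean FPKM, with a median of 7.03-fold over the 9 entries. The median log2 difference was 2.55, beside 0.0073 over all genes tested. In 9 of 9 entries the lowest Villin-WlscKO tumor lay above the highest control tumor, as did 5.33% of all names tested, while 4.76% of names were separated the other way. Since the genes were selected on this contrast, nothing is read from these counts. All 9 entries also had a control mean above 0.5 FPKM, so none entered through the Villin-WlscKO tumors alone. In whole tumor pieces, a change in the number of cells that make an RNA and a change in RNA per cell cannot be told apart.

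**Figure D2:**
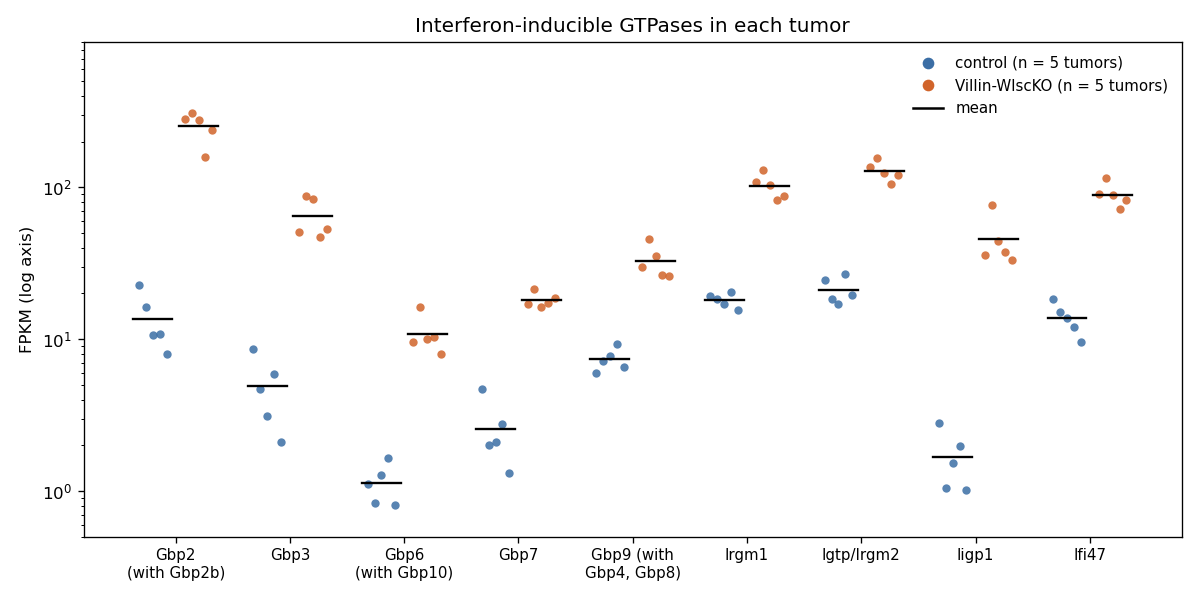
FPKM on a log axis of the 9 distinct member entries in each of 5 control and 5 Villin-WlscKO tumors; points are tumors in the order of their numbers and lines are group means. In each entry the 5 Villin-WlscKO tumors sit above the 5 control tumors, and Gbp2 has the highest mean of the members in the Villin-WlscKO tumors, 253 FPKM.

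Gbp2 (chr3:142620602-142638008), a guanylate-binding protein that coats the vacuoles of parasites and the surface of bacteria, measured 22.6, 16.2, 10.7, 10.8 and 7.94 FPKM in control tumors 1 to 5. In Villin-WlscKO tumors 1 to 5 it measured 280.3, 307, 279, 159 and 239.6 FPKM. The mean was 18.5-fold higher, and even Villin-WlscKO tumor 4, the lowest, was far above control tumor 1. The log2 difference was 4.16 ± 0.26 (SE, n = 5 and 5). Among the 15468 distinct entries of the table, the mean of Gbp2 ranked 6935 in the controls and 421 in the Villin-WlscKO tumors. The neighbouring Gbp2b carried the same values, so both genes together are described.

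Gbp3 (chr3:142560026-142573209), of the same cluster, measured 8.59, 4.70, 3.12, 5.91 and 2.09 FPKM in the controls. Its values in the Villin-WlscKO tumors were 50.8, 87.1, 83.3, 47.0 and 53.4 FPKM, with tumors 2 and 3 clearly above the other three. The log2 difference was 3.54 ± 0.30 (SE). Gbp3 shares its values with no other name. Gbp7 (chr3:142530342-142550149), also of this cluster, had lower levels, of 1.32 to 4.70 FPKM in the controls and 16.3 to 21.3 FPKM in the Villin-WlscKO tumors, a log2 difference of 2.48 ± 0.21 (SE). Its highest and lowest Villin-WlscKO tumors differed by 1.31-fold, the smallest spread of any member in that group, while its controls differed by 3.56-fold. Its values are shared with the name RP23-100J23.5.

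The chromosome 5 members Gbp6 (chr5:105270702-105293698) and Gbp9 (chr5:105077630-105139539) were lower in level or in change. Gbp6 measured 0.805 to 1.64 FPKM in the controls and 7.95 to 16.4 FPKM in the Villin-WlscKO tumors, a log2 difference of 2.46 ± 0.18 (SE). With so low a control level, a pseudocount of 0.1 in place of 1 moved this difference to 3.16. Gbp9 measured 6.02 to 9.29 FPKM in the controls and 25.9 to 45.9 FPKM in the Villin-WlscKO tumors, and its log2 difference of 1.99 ± 0.16 (SE) was the smallest of the members. The Gbp9 values are also those of Gbp4 and Gbp8, whose GENCODE spans overlap that of Gbp9, and Gbp6 shares its values with Gbp10. Which gene of each group gave the reads cannot be told from the table.

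Among the regulatory immunity-related GTPases, Irgm1 (chr11:48861968-48871683), which restrains the effector members and is needed for the upkeep of lysosomes and mitochondria, measured 19.3, 18.3, 17.0, 20.6 and 15.5 FPKM in the controls. In the Villin-WlscKO tumors it measured 109, 129.5, 104, 82.5 and 87.3 FPKM. Irgm1 was thus one of the better expressed members in control tumors and varied little there, by 1.33-fold from lowest to highest. Its log2 difference was 2.42 ± 0.13 (SE), the smallest standard error of the members.

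The entry of Igtp and Irgm2, the other regulatory members, measured 24.4, 18.4, 17.0, 26.7 and 19.5 FPKM in the controls. In the Villin-WlscKO tumors the values were 137, 157, 125, 105 and 121 FPKM. This entry had the highest mean of the members in control tumors, 21.2 ± 4.15 FPKM (SD, n = 5), and the mean of the Villin-WlscKO tumors was 6.07-fold higher, a log2 difference of 2.55 ± 0.14 (SE). In GENCODE M21 the span of Irgm2 (chr11:58199618-58222782) begins inside that of Igtp (chr11:58199556-58207591), and 7974 bases are common to both. The 2 genes were therefore counted here as 1 entry.

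The effector Iigp1 (chr18:60376027-60392634) changed by the largest fold of the members. It measured 2.79, 1.04, 1.52, 1.98 and 1.02 FPKM in the controls. In the Villin-WlscKO tumors it measured 36.0, 76.2, 44.6, 37.6 and 33.2 FPKM, so that tumor 2 stood well above the other 4. The log2 difference was 4.10 ± 0.25 (SE), close to that of Gbp2, although the mean of Iigp1 in the Villin-WlscKO tumors, 45.5 FPKM, was far below that of Gbp2. With a pseudocount of 0.1 in place of 1, the difference was 4.71 for Iigp1 and 4.26 for Gbp2. Ifi47 (chr11:49076587-49096974), the other effector, measured 18.4, 15.2, 13.7, 12.0 and 9.57 FPKM in the controls and 89.9, 115, 89.4, 71.6 and 82.0 FPKM in the Villin-WlscKO tumors. Its log2 difference was 2.63 ± 0.17 (SE). Its values are shared with Olfr56, an olfactory receptor name whose annotated span includes the whole of Ifi47.

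The order of the members by FPKM differed between the groups. In control tumors it was Igtp/Irgm2, Irgm1, Ifi47, Gbp2, Gbp9, Gbp3, Gbp7, Iigp1 and Gbp6, and each neighbour in this order overlapped the next in range. Ifi47 and Gbp2, for example, had means of 13.8 and 13.7 FPKM and Ifi47 was the higher in 3 of 5 tumors. In Villin-WlscKO tumors Gbp2 came first, above Igtp/Irgm2 in all 5 tumors and without overlap of the ranges. Irgm1, Ifi47, Gbp3, Iigp1, Gbp9, Gbp7 and Gbp6 followed, and besides Gbp2 only Gbp9 was separated from its lower neighbour, Gbp7, in range. Gbp2 made up 11.8% to 20.9% of the summed FPKM of the 9 entries in control tumors and 28.6% to 36.9% in Villin-WlscKO tumors. That sum lay between 64.3 and 108 FPKM in the controls and between 557 and 955 FPKM in the Villin-WlscKO tumors.

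Within each group, tumors tended to be high or low for several members at once. Villin-WlscKO tumor 2 was the highest of its group in 9 of 9 entries, with a mean deviation of 0.44 from the group mean on the log2 scale, whereas tumor 4 was the lowest in 5 entries, tumor 5 in 3 and tumor 3 in 1. Among the controls, tumor 1 was highest in 5 entries and tumor 4 in 4, and tumor 5 was lowest in 7. Control tumor 5 lay below the group mean in all 9 entries, by 0.39 on average. Across the 10 tumors, and over 14111 distinct entries outside the members with a mean of at least 1 FPKM, the 8 entries whose deviations were most like the mean deviation of the members were Gm16380, Scarb2, Gm12250, Gm5161 and Apol9a (Pearson r of 0.91 each) and Mx1, Isg15 and the entry shared by Lama5 and Mir7005 (r of 0.90 each). These are the highest of many values, from 10 tumors that share 1 table and its scaling, and are given with no test. Apol9a measured 1.12 and 5.36 FPKM in the 2 groups and Scarb2, a lysosomal membrane protein, 31.2 and 35.4 FPKM, so that likeness within groups did not need a difference between them. Without Villin-WlscKO tumors 2 and 3, those with Krt5, the median log2 difference of the members was 2.46, a choice made after the data were seen.

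**Figure D3:**
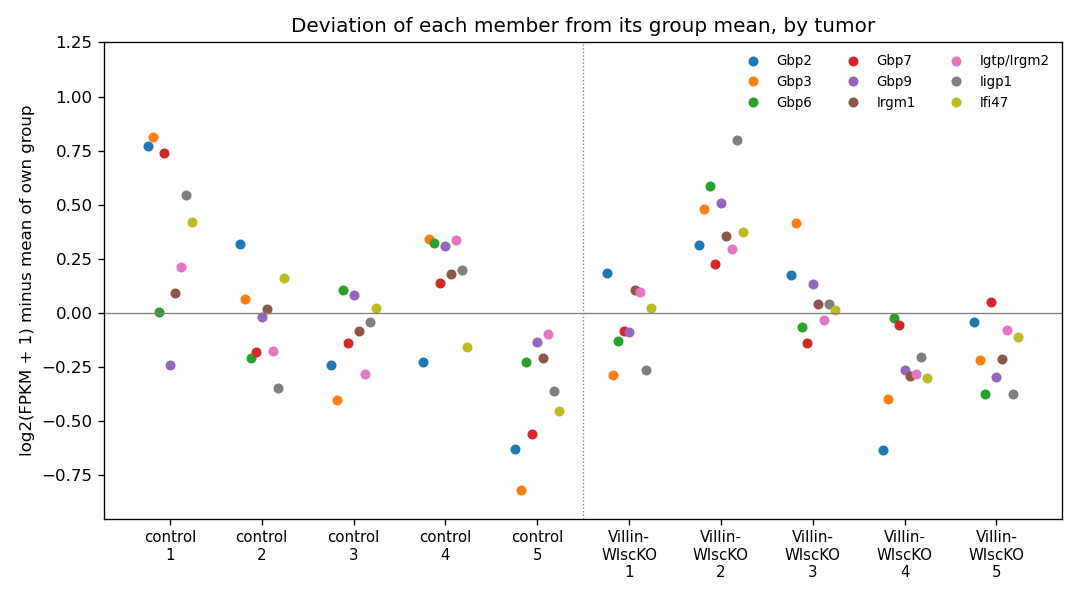
Deviation of log2(FPKM + 1) of each of the 9 member entries (colors) from the mean of its own group, for control tumors 1 to 5 and Villin-WlscKO tumors 1 to 5. All 9 entries are above 0 in Villin-WlscKO tumor 2, and all 9 are below 0 in control tumor 5 and in Villin-WlscKO tumor 4.

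The families hold further genes outside the selected 10. Of 11 distinct entries tested that share values with no member, 9 were higher in Villin-WlscKO tumors and 0 lower at an adjusted p under 0.05 (limma). Of these 11, 5 passed the filter on low values through the Villin-WlscKO tumors alone, as their control mean was under 0.5 FPKM, and for them the filter asked for a difference. Among the other 6 entries, 5 were higher and 0 lower (limma). Gbp5, a guanylate-binding protein linked to inflammasome activation, rose from 0.967 ± 0.491 to 11.7 ± 3.28 FPKM (SD, n = 5 each), a log2 difference of 2.69 ± 0.21 (SE, limma adjusted p = 3.54e-05). Tgtp1, an effector immunity-related GTPase whose values Gm12185 shares, measured 1.14, 1.32, 0.481, 1.12 and 0.370 FPKM in the controls and 32.2, 77.2, 31.2, 31.5 and 33.6 FPKM in the Villin-WlscKO tumors. Its log2 difference of 4.41 ± 0.26 (SE, limma adjusted p = 7.61e-06) was near that of Gbp2, but its control level was low. With a pseudocount of 0.1 in place of 1, the difference was 4.26 for Gbp2 and 5.42 for Tgtp1. Tgtp2, a near copy of Tgtp1, rose by 3.80 ± 0.27 (SE, limma adjusted p = 1.85e-05), and how reads were split between the copies is not stated.

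Gm12250 rose from a mean of 0.849 to 18.9 FPKM, by 3.40 ± 0.27 on the log2 scale (SE, limma adjusted p = 4.61e-05). GENCODE M21 annotates it as a processed pseudogene, but RefSeq lists a start site for it outside that annotated span, so the label is not settled here. The low genes Gm5431, Gm4951, Gm4841 and F830016B08Rik had control means of 0.413, 0.183, 0.0216 and 0.0248 FPKM and Villin-WlscKO means of 3.75, 6.12, 2.60 and 1.06 FPKM. In all 4 the lowest Villin-WlscKO tumor lay above the highest control tumor, but they passed the filter through the Villin-WlscKO tumors alone, so this is a description. 9930111J21Rik1 stood out by a high control level of 137 FPKM and a difference of 0.99 ± 0.089 (SE, limma adjusted p = 8.70e-05), but its values are also those of the proteasome activator gene Psme2b. The remaining entries did not pass: 9930111J21Rik2, with a control mean of 0.477 FPKM, differed by 0.36 ± 0.12 (SE, limma adjusted p = 0.0864), and Irgq, a distant relative, by -0.23 ± 0.077 (SE, limma adjusted p = 0.0883).

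**Figure D4:**
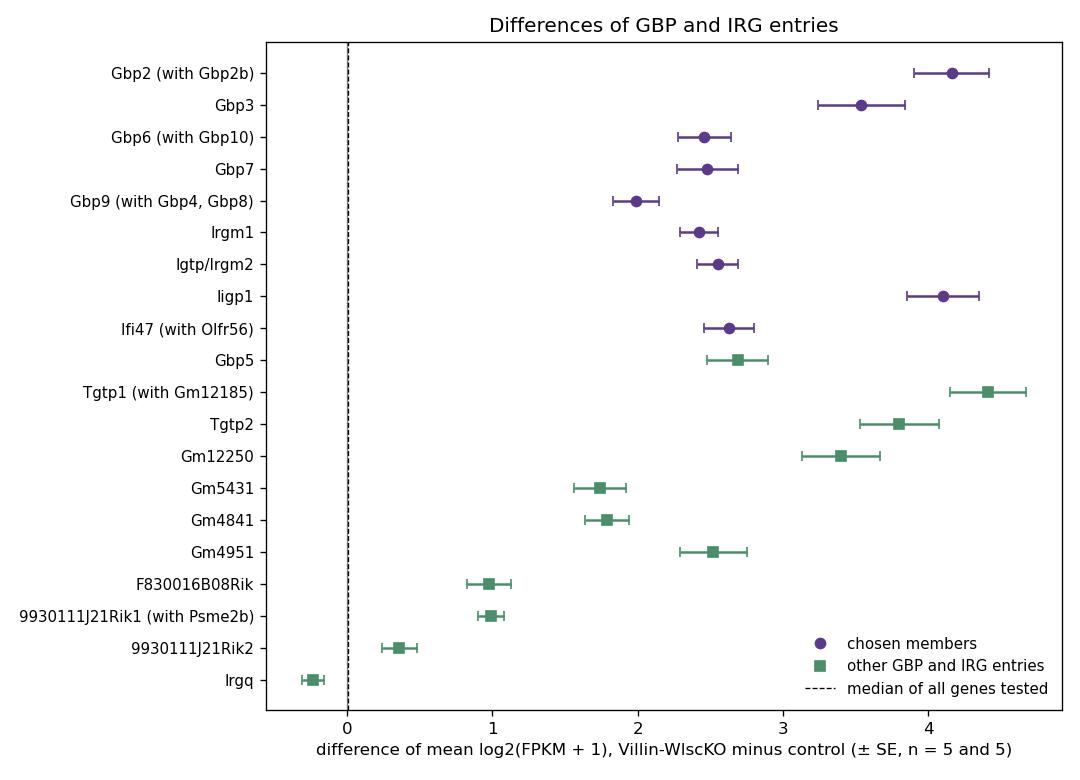
Log2 difference between Villin-WlscKO and control tumors, positive where the Villin-WlscKO tumors are higher, with its standard error (n = 5 and 5 tumors), for the 9 member entries (circles) and 11 other entries of the families (squares); the dashed line is the median of all genes tested, 0.0073. Tgtp1 lies farthest to the right at 4.41 and Irgq lies at -0.23.

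Other interferon-inducible large GTPases and relatives were not called. Of the Mx genes, Mx1 differed by 1.06 ± 0.45 (SE, limma adjusted p = 0.168). Mx2, annotated as a polymorphic pseudogene, differed by 0.41 ± 0.24 (SE, limma adjusted p = 0.315), and both overlapped between groups. Of 3 such large GTPases and 3 atlastins tested, the latter being membrane-fusing relatives of the guanylate-binding proteins, 0 passed the limma threshold in either direction, and 1 of them, Mx1, had an unadjusted p under 0.05. Genes next to the members' clusters were examined in the same fit. Of 20 protein-coding neighbours, the 2 nearest tested on each side of 5 segments, 1 was higher and 0 were lower. Over all names tested, 6.12% were higher and 4.75% lower, so nothing is read from this count. The gene called was Slc12a2, an ion transporter 2429 kb from Iigp1, at 54.2 FPKM in control and 93.2 FPKM in Villin-WlscKO tumors.

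Of the interferon-gamma pathway, 5 of 8 genes tested were higher in Villin-WlscKO tumors and 0 lower (limma). The ligand Ifng was below the filter. It was listed at 0 in 4 control tumors and at 0.0584 FPKM in control tumor 4, and measured 0.648, 1.35, 0.719, 0.185 and 0.387 FPKM in Villin-WlscKO tumors 1 to 5, so that all 5 lay above the controls. Without the filter its difference passed (limma adjusted p = 0.0305). The order of the Villin-WlscKO tumors by Ifng, from tumor 2 through 3, 1 and 5 to 4, was also their order by the summed FPKM of the 9 member entries, from 955 to 557 FPKM. In the controls, tumor 4, with the only Ifng value above 0, came second by that sum, and the 4 tumors listed at 0 spread from 64.3 to 108 FPKM. Other genes of the pathway followed the members unevenly: over the 10 tumors, the Pearson r of their deviations with the mean deviation of the members was 0.78 for Nlrc5, 0.70 for Ifng, 0.52 for Ciita, 0.03 for Irf1, -0.20 for Batf2 and -0.36 for Ifngr1. These are descriptions, with no test, of tumors that share 1 table, and Ifng was very low.

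The receptor chain Ifngr1 rose by 0.59 ± 0.14 (SE, limma adjusted p = 0.0228), with overlap between the groups. Its call was lost without control tumor 2 or 4 (adjusted p = 0.0567 each), control tumor 5 (adjusted p = 0.0506) or Villin-WlscKO tumor 5 (adjusted p = 0.0543). Ifngr2 differed by -0.27 ± 0.11 (SE, limma adjusted p = 0.134), Jak1 by 0.13 ± 0.051 (SE, limma adjusted p = 0.125) and Jak2 by 0.23 ± 0.078 (SE, limma adjusted p = 0.0888), and none of these passed. All 8 genes of the pathway that were tested, these included, had an unadjusted p under 0.05 in limma.

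Irf1, a factor that binds the ISRE, rose from a mean of 48.8 to 139 FPKM, by 1.48 ± 0.098 (SE, limma adjusted p = 1.18e-05), and Batf2 rose by 2.00 ± 0.17 (SE, limma adjusted p = 5.67e-05). The regulators of major histocompatibility genes had the largest differences of the pathway: Nlrc5, for class I, rose from 1.16 to 25.2 FPKM, by 3.59 ± 0.18 (SE, limma adjusted p = 1.92e-06). Ciita, for class II, rose from 0.533 to 6.61 FPKM, by 2.30 ± 0.15 (SE, limma adjusted p = 1.26e-05). Of 7 inhibitors of interferon signalling, 1 was higher and 0 lower: Socs1, which blocks the Jak kinases, rose by 1.60 ± 0.27 (SE, limma adjusted p = 0.00463).

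**Figure D5:**
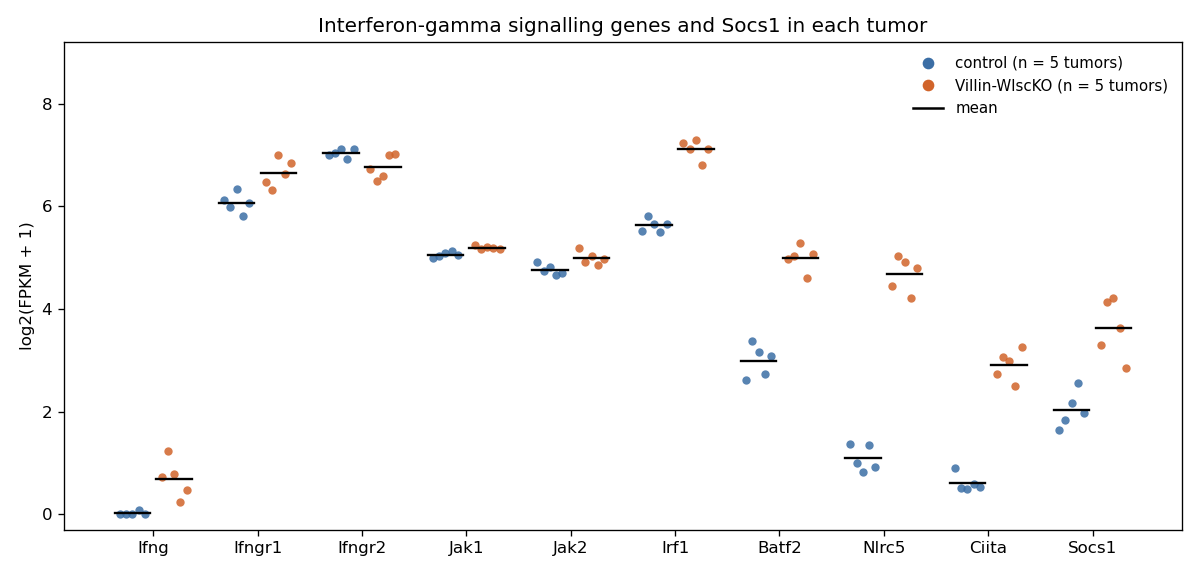
Expression, as log2(FPKM + 1), of the interferon-gamma ligand, receptor chains, kinases, transcription factors and the inhibitor Socs1 in each tumor; points are tumors in the order of their numbers, lines are means of 5. Ifng is at or near 0 in the controls, and the receptor and kinase genes lie close together in both groups. Ifng, Jak1, Irf1, Batf2, Nlrc5, Ciita and Socs1 are separated without overlap, Jak1 by a small gap.

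Other targets of interferon-gamma rose almost as a whole list: 16 of 17 genes tested were higher and 0 lower (limma), with a median log2 difference of 2.73. Ido1, which breaks down tryptophan, rose from 2.38 to 168 FPKM, by 5.72 ± 0.40 (SE, limma adjusted p = 1.75e-05). The T cell attractant Cxcl9 rose by 3.90 ± 0.34 (SE, limma adjusted p = 6.67e-05), and Nos2, which makes nitric oxide, by 3.80 ± 0.33 (SE, limma adjusted p = 6.67e-05). B2m, the light chain of class I molecules, rose from 309 to 3427 FPKM, by 3.48 ± 0.23 (SE, limma adjusted p = 1.14e-05). Serpina3g did not pass, at 1.46 ± 0.47 (SE, limma adjusted p = 0.0764). The list was drawn up with these results known and is no independent evidence of direction.

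Targets classically tied to type I interferon showed a smaller share, 13 of 18 higher and 0 lower (limma), with a median log2 difference of 1.37. Ifi44 rose by 1.92 ± 0.35 (SE, limma adjusted p = 0.00659), the antiviral Oasl2 by 1.85 ± 0.31 (SE, limma adjusted p = 0.00436) and Rtp4 by 1.75 ± 0.26 (SE, limma adjusted p = 0.00237). The ubiquitin-like Isg15 rose by 1.83 ± 0.46 (SE, limma adjusted p = 0.0287), with overlap. Its call was lost without control tumor 2, 4 or 5, or without Villin-WlscKO tumor 1, 2 or 3 (adjusted p from 0.0504 to 0.0708). Without Villin-WlscKO tumors 2 and 3, 8 of the 18 were called and Ifi44 was not (log2 difference 1.67, limma adjusted p = 0.0509). With fewer tumors, calls over all genes also fell, from 1822 to 1092. Whether the 2 target lists differ was not tested. Among 9 genes of type I and III interferon signalling, 3 were higher and 0 lower: Stat2 rose by 1.04 ± 0.14 (SE, limma adjusted p = 0.00113), Irf9 by 0.77 ± 0.066 (SE, limma adjusted p = 6.67e-05) and Irf7 by 1.01 ± 0.26 (SE, limma adjusted p = 0.0348). The call of Irf7 was lost without any 1 of control tumors 2 to 5 or Villin-WlscKO tumors 1, 2, 3 and 5 (adjusted p from 0.0521 to 0.0852).

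Genes that work with the members at the vacuole were examined next. The ATG8 system, which marks membranes and directs the GTPases to them, had 0 of 9 genes higher and 1 lower (limma). That gene, Map1lc3a, fell by 0.41 ± 0.12 (SE, limma adjusted p = 0.0497), and the call was lost without any 1 of control tumors 1, 2, 4 and 5 or Villin-WlscKO tumors 1, 3, 4 and 5 (adjusted p from 0.0544 to 0.112). Of 6 ubiquitin adaptors and galectins, the antibody receptor Trim21 rose by 0.90 ± 0.093 (SE, limma adjusted p = 0.000234) and the autophagy adaptor Optn fell by 0.76 ± 0.14 (SE, limma adjusted p = 0.00843). Inflammasomes can sense content that escapes from a broken vacuole. Of 10 genes of inflammasomes and the proteins they act on, 5 were higher and 0 lower. The nucleic acid sensor Zbp1 rose from 22.0 to 133 FPKM, by 2.55 ± 0.16 (SE, limma adjusted p = 8.51e-06). Casp1 rose by 1.05 ± 0.13 (SE, limma adjusted p = 0.000596), Casp4 by 0.82 ± 0.17 (SE, limma adjusted p = 0.0128) and the pore-forming Gsdmd by 0.74 ± 0.15 (SE, limma adjusted p = 0.0129). Without Villin-WlscKO tumors 2 and 3, where calls over all genes also fell, Optn and Gsdmd did not pass. Their log2 differences there were -0.71 (limma adjusted p = 0.0560) and 0.66 (limma adjusted p = 0.0583).

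Markers of cells that make or answer interferon-gamma moved in part with the members. Of 9 T cell markers tested, 5 were higher and 0 lower (limma), and their summed level ranged from 14.2 to 24.1 FPKM in the controls and from 25.3 to 55.6 FPKM in the Villin-WlscKO tumors. Of these 9, 4 passed the filter through the Villin-WlscKO tumors alone, among them the called Cd3e, Cd3d and Cd8a, and of the other 5 markers 2 were higher, Cd3g and Trbc2. Cd8a measured 0.0923 and 1.04 FPKM in the 2 groups, and Cd4 measured 3.07 and 2.88 FPKM (limma adjusted p = 0.940). Of 4 NK cell and cytotoxic markers, 3 were higher, with sums of 1.41 to 6.83 and 5.06 to 16.5 FPKM. Of these 4, 2 passed the filter through the Villin-WlscKO tumors alone, and the other 2, Gzma and Gzmb, were both higher. Of 10 macrophage markers, 1 (Cd14) was higher, and the sums overlapped, at 397 to 929 and 364 to 679 FPKM. Of 5 neutrophil markers 0 passed in limma and 4 had an unadjusted p under 0.05, with sums of 225 to 750.3 and 579 to 1205 FPKM. Of 3 B cell markers, 2 of which entered through the Villin-WlscKO tumors alone, 0 passed in limma and 2 had an unadjusted p under 0.05, with sums of 0.366 to 1.95 and 1.88 to 7.35 FPKM. Endothelial sums of 11.4 to 42.1 and 11.3 to 42.8 FPKM and fibroblast sums of 96.9 to 299 and 96.3 to 369 FPKM overlapped, and in limma 0 of 5 markers of each list passed, with or without adjustment. The 5 pan-epithelial markers summed to 5269.6 to 7419 and 6183 to 8164 FPKM, with 0 passing in limma and 1, Krt8, under an unadjusted p of 0.05. Of 6 colon epithelium markers 1, Krt20, was higher, with sums of 459 to 1084 and 624 to 1379 FPKM. The 5 squamous markers summed to 26.8 to 180.1 and 10.6 to 1241 FPKM, and 0 passed in limma, with or without adjustment. The part of these cells in the values of the members was not tested.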

How the data were processed

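RNA of 10 macrodissected AOM/DSS colon tumors had been made into stranded mRNA libraries. The authors mapped the reads with TopHat2 2.1.1 to GRCm38.p5 and quantified them with Cufflinks 2.2.1 and Cuffdiff, per the labels, and deposited FPKM values for 16875 gene names; the annotation release and whether strand was used in counting are not given in the sources used here. Names of 1 locus can carry identical values, as 7 of the 10 members do, and identical entries were counted once for the members. No reads or counts were analysed here. Among 112 low genes searched for steps of whole reads, at most 6 shared 1 ratio within 0.1%, so depth is unknown and precision rests on the spread between tumors.

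Groups followed the genotype labels. 1 item is not reported here. The members and gene lists were chosen with earlier results of these data known. limma 3.58.1 in R 4.3.3 was fitted to log2(FPKM + 1) of all 10 tumors with a variance trend, no covariate and no block, over 16757 names with a mean of at least 0.5 FPKM, two-sided, with Benjamini-Hochberg adjustment over all of them and a threshold of 0.05. For the members only the difference and its standard error were used. On simulated data for this comparison with 16757 genes, of which 200 were changed by 2 on the log2 scale, 195 changed and 11 unchanged genes were called, and 0 with none changed. The text names all members, the other genes of both families and of interferon-gamma signalling, up to 4 called genes with the largest differences per other interferon or partner list, the 8 entries most like the members, and Wls, Xist and Eif2s3y. Other genes named, among them Mx2, Serpina3g, Krt5, Slc12a2 and the cell type markers, were chosen after their values were seen. Alternatives varied the pseudocount, scaling, filter, variance model, block and the tumors included. Summaries, promoter searches and figures used Python 3.11.15, numpy 2.4.6, pandas 2.3.3 and matplotlib 3.10.9. Promoter sequences are from RefSeq (GRCm38.p6), found for 7 of the 10 members.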

Additional observations from a re-analysis of the deposited data

Results flagged for a closer look

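In 10 of 108 groups of 5 tumors (54 genes in both genotypes), 1 tumor stood apart from the other 4 by a gap of more than 0.71 of the whole range; chance flags about 1 in 20 groups. Of the members this held for Iigp1, at 76.2 FPKM in Villin-WlscKO tumor 2 against 33.2 to 44.6 FPKM in the others. The same tumor stood apart for Tgtp1 and Gm12185, which share values, at 77.2 FPKM against 31.2 to 33.6 FPKM, and for Tgtp2 at 56.5 FPKM against 22.2 to 28.9 FPKM. Tumor 2 was also the highest Villin-WlscKO tumor for every member entry.

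The remaining 6 concerned control tumors. Control tumor 1 was high for Ciita (0.875 FPKM, others 0.408 to 0.508 FPKM), for Ido1 (6.27 FPKM, others 0.885 to 1.89 FPKM) and for Oasl2 (25.0 FPKM, others 8.61 to 10.2 FPKM). Control tumor 3 was high for Nos2 (7.85 FPKM, others 1.31 to 2.54 FPKM), for Casp4 (34.6 FPKM, others 18.4 to 22.7 FPKM) and for F830016B08Rik (0.0599 FPKM, others 0.0145 to 0.0185 FPKM).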

How the results depend on the processing

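Every member entry stayed higher in Villin-WlscKO tumors under all 17 alternatives run on it. The members were selected on this contrast and none overlapped between groups, so leaving out tumors could not change this direction. Nothing is read from it. The median log2 difference of 2.55 lay between 2.48 and 2.66 when 1 tumor was left out and moved by more than the spread between tumors to 2.88 with a pseudocount of 0.1 and to 3.04 as the log2 ratio of median FPKM. The 1822 calls over all genes lay between 1231 and 1983 without 1 tumor. Leaving out Villin-WlscKO tumors 2 and 3, chosen after seeing the data, gave 1092 calls over all genes and 8 in place of 13 type I interferon targets. Counting identical entries once, also chosen after seeing the data, left 9 in place of 14 calls among other genes of the families, since names that share values with a member or with each other dropped out. Without 1 tumor, calls were 14 in every case for the names of those genes. These 14 include names with the values of members and names that passed the filter through the Villin-WlscKO tumors alone. Nothing is therefore read from their constant number, here or in the fit with a block below. For interferon-gamma signalling, calls were 4 to 5 (5 with all tumors), for interferon-gamma targets 16 to 17 and for type I targets 10 to 14. Whether replicate numbers pair the tumors is not stated. Correlations of the deviations of same-numbered tumors were 0.064, -0.087, 0.063, 0.10 and 0.16, which cannot settle it. A fit with the replicate number as a block gave 1627 calls over all genes, 14, 5, 17 and 12 in the 4 lists, and a member median of 2.55; Map1lc3a did not pass there (limma adjusted p = 0.0666), nor after scaling to 1 FPKM sum (0.171) or without the variance trend (0.0610). Gained calls were Jak2 under the sum scaling (limma adjusted p = 0.0155), Ifngr2 (0.0360) and Irgq (0.0469), both lower, under quantile normalization, and 9930111J21Rik2 without the trend (0.0486). Across scalings the median log2 difference of all genes lay between -0.046 and 0.097 (0.007 as deposited). With no depth, the error of FPKM values near 0, such as those of Ifng, is unknown.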
